A study of Mus musculus with 12 samples.

Results

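Lipogenic genes turn the products of sugar breakdown into fatty acids and then into glycerides. The 10 genes described here are the transcription factor genes Srebf1 and Mlxipl, the enzyme genes Acly, Acss2, Acaca, Fasn and Gpam, the regulator genes Thrsp and Mid1ip1, and Pnpla3. They were chosen by name, with earlier results of these data known. Every probe set with 1 of these symbols in the array's annotation was taken, which gave 17 of 22690 probe sets. All 10 genes had a probe set, and 9 of the 10 passed the filter on low values, as did 8469 of 12393 genes.

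The study took liver RNA from 12 mice, C57BL6/J males aged 8 weeks, with 3 in each of 4 groups and 1 Affymetrix array per liver. Wild-type mice and mice labelled txnrd1 liver-null received saline or 100 mg/kg acetaminophen (APAP) by injection into the peritoneum, and livers were taken 8 hours later. In the liver-null mice a conditional allele of Txnrd1, the gene of cytosolic thioredoxin reductase, was disrupted by albCre, a Cre recombinase driven in hepatocytes, so other liver cells should keep the gene. The labels do not say whether the wild-type mice carried the conditional allele or albCre, or when the mice last ate. Groups are named below by genotype and injection, and livers by the number in their label.

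In liver, Acly cleaves citrate and Acss2 joins acetate to coenzyme A, and both yield cytosolic acetyl-CoA. Acaca carboxylates acetyl-CoA to malonyl-CoA, and Fasn builds palmitate from it. Srebf1 encodes SREBP1, which insulin and liver X receptors induce, and Mlxipl encodes ChREBP, which responds to sugar. Both factors drive transcription of the enzyme genes, and these genes rise with feeding and fall with fasting.

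The values are log2 expression values from RMA, on which a difference of 1 is a doubling. The levels of different genes cannot be set against each other, since each probe set binds with its own strength. A gene was tested where it exceeded the 40th percentile of its array, 2.42 to 2.48, on at least 3 arrays. The arrays fell into a first set of 8 and a second set of 4 (wild-type livers 10 and 14 and liver-null livers 16 and 17), split at the largest gap in their upper quartile, 5.73 to 5.85 against 5.49 to 5.58. The labels do not name these sets, and each group has 1 array in the second. The hepatocyte genes Alb, Apoa1, Ttr, Fah and Cps1 had group means from 11.08 to 13.85 in all 4 groups. The brightest of 3 probe sets of Txnrd1 itself read 10.26 to 10.58 on the 6 arrays labelled liver-null and 9.43 to 9.81 on the 6 wild-type arrays, and the other two lay between 1.33 and 2.06. Where they lie relative to the deleted part was not analysed, so this gene gives no check of the genotype labels.

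Taken over both treatments, 4 of the 9 tested genes were lower in liver-null than in wild-type livers, and 0 were higher. They were Mid1ip1, Fasn, Acly and Gpam (limma, adjusted p under 0.05 over 8469 genes), with falls of 3.29-fold, 4.35-fold, 1.84-fold and 1.55-fold. The same rule called 2.18% of all tested genes lower and 2.28% higher. The genes and the comparison over both treatments were chosen with earlier results known, so these shares are a description and not a test of the set. With the array set in the model 5 of the 9 passed, against 5.28% of all genes called lower. The median log2 difference of the 9 genes was -0.64, beside -0.01 for all genes tested, and each of the 9 had a value below 0. The share of all genes below 0 was not counted. Pnpla3, at -0.08, was above 0 without wild-type APAP 14 (0.0202) and in the first array set alone (0.0407). Only Mid1ip1 passed whichever liver was left out. Without wild-type saline 8 the adjusted p was 0.11 for Acly, 0.0873 for Fasn and 0.0775 for Gpam (limma), and 1 of the 9 passed. Fewer cells of a type and less RNA per cell cannot be told apart in these whole-liver samples.

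**Figure D1:**
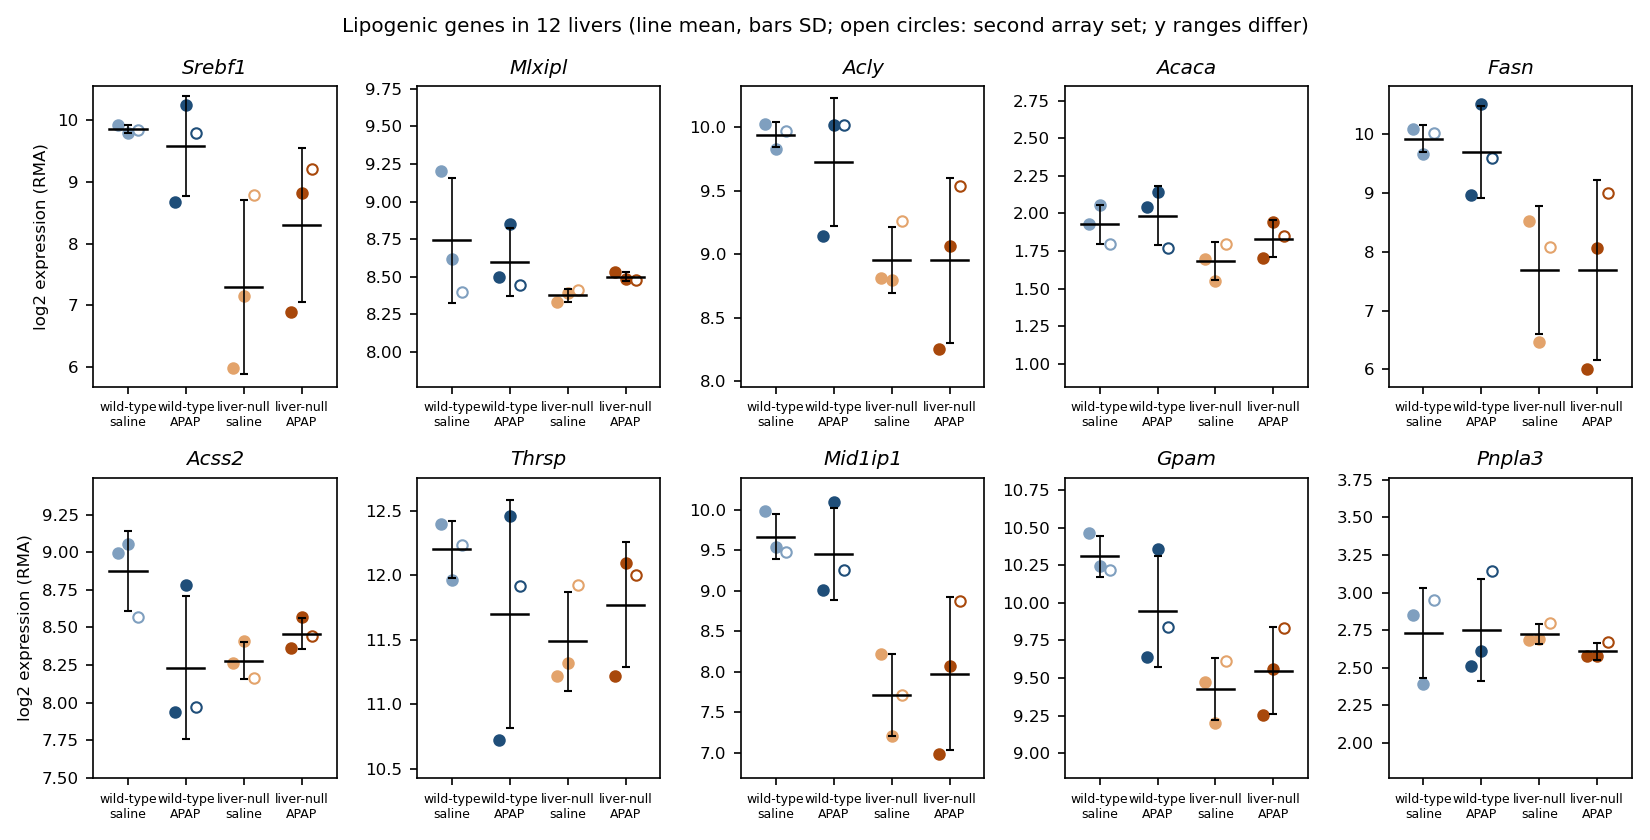
Log2 expression of the 10 genes (vertical axis, its range differs between panels) in the 4 groups (horizontal axis). Each point is 1 liver, open circles are arrays of the second set, the line is the mean of 3 livers and the bars are 1 SD. Fasn, Srebf1 and Mid1ip1 reach their lowest values in liver-null livers, while Acaca stays between 1.55 and 2.14 in all 12.

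Among the transcription factor genes, Srebf1 was nearly level in wild-type saline livers, at 9.93, 9.80 and 9.84. In liver-null saline livers it read 5.98, 7.15 and 8.78. After APAP it read 8.68, 10.26 and 9.80 in wild-type and 6.89, 8.83 and 9.21 in liver-null livers. The saline groups did not overlap and the APAP groups did. The log2 difference over both treatments was -1.91 (SE 0.50, n = 6 per genotype), a level 3.77-fold lower that did not pass (adjusted p = 0.0548, limma). It passed with the array set in the model (adjusted p = 0.0205, limma), and the difference was -2.46 within the first set and -0.83 within the second. Liver-null livers 16 and 17, both of the second set, were the highest of their groups for Srebf1.

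The spread of Srebf1 differed between groups, with an SD of 0.07 in saline and 0.81 with APAP for wild-type livers, and of 1.41 and 1.25 for liver-null livers. The fit uses 1 spread per gene for all groups, and the difference in spread was not tested.

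Mlxipl, the ChREBP gene, read 9.21, 8.62 and 8.40 in wild-type saline livers and 8.33, 8.39 and 8.41 in liver-null saline livers. After APAP it read 8.50, 8.85 and 8.44 in wild-type and 8.53, 8.49 and 8.48 in liver-null livers. The genotypes overlapped in both treatments. The log2 difference over both treatments was -0.23, with a 95% interval from -0.52 to 0.05 (adjusted p = 0.422, limma). Within the first set it was -0.36 and within the second 0.02.

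For acetyl-CoA supply, the Acly probe set with the highest mean read 10.03, 9.83 and 9.97 in wild-type saline and 8.81, 8.80 and 9.26 in liver-null saline livers. Its values after APAP were 9.14, 10.02 and 10.02 in wild-type and 8.26, 9.07 and 9.54 in liver-null livers. Without APAP the groups were apart, and after it wild-type 12 lay below liver-null 17. Acly fell by 0.88 on the log2 scale over both treatments (SE 0.22, adjusted p = 0.0454, limma; adjusted p = 0.013 with the array set in the model). The difference was -1.02 within the first set and -0.60 within the second.

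Acly has 5 probe sets, and the one above is of the x_at type, whose probes may match other transcripts. A second one, 1451666_at, gave -0.85 (SE 0.18, adjusted p = 0.0245, limma over all probe sets), and another, 1425326_at, gave -1.03 (SE 0.32, adjusted p = 0.112). The last 2, which lay between 1.16 and 2.60, did not pass the filter. Both brighter probe sets, x_at and at, passed.

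Acss2 read 8.997, 9.05 and 8.57 in wild-type saline and 8.26, 8.41 and 8.17 in liver-null saline livers, groups that did not overlap. With APAP it stood at 7.94, 8.78 and 7.97 in wild-type and 8.36, 8.57 and 8.44 in liver-null livers, with wild-type livers both below and above the others. The genotype difference was -0.59 in saline (SE 0.21, adjusted p = 0.256) and 0.23 after APAP (adjusted p = 0.916, limma). Over both treatments it was -0.18, with a 95% interval from -0.51 to 0.15. On its second probe set the saline groups overlapped, with wild-type 8 at 7.771 and liver-null 16 at 7.774. The saline difference there was -0.72 (SE 0.465, adjusted p = 0.651, limma over all probe sets).

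Acaca, which encodes the carboxylase of lipogenesis, has 1 probe set, 1427595_at. It lay between 1.55 and 2.14 on the 12 arrays, under the filter limit of 2.42 to 2.48 on every one. With no filter its log2 difference over both treatments was -0.20 (SE 0.09, adjusted p = 0.347, limma). At this signal a change of Acaca could not be measured, and a low signal of 1 probe set says nothing of the transcript's level.

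Fasn, the multifunctional synthase, read 10.10, 9.66 and 10.02 in wild-type saline and 8.53, 6.47 and 8.08 in liver-null saline livers. With APAP the values were 8.96, 10.52 and 9.60 in wild-type and 6.003, 8.06 and 9.01 in liver-null livers. In saline the groups were apart, and after APAP liver-null 17 lay above wild-type 12 by a small margin. Fasn fell by 2.12 on the log2 scale over both treatments (SE 0.50, 95% interval -3.21 to -1.03, adjusted p = 0.035, limma; adjusted p = 0.021 with the array set in the model). Within the first set the difference was -2.55 and within the second -1.27.

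Thrsp and Mid1ip1 encode related small proteins that bind each other and act on acetyl-CoA carboxylase, and Thrsp is also called Spot 14. Mid1ip1 read 9.99, 9.54 and 9.48 in wild-type saline and 8.22, 7.20 and 7.71 in liver-null saline livers. In the APAP groups it read 9.01, 10.10 and 9.26 in wild-type and 6.98, 8.07 and 8.87 in liver-null livers. All 6 wild-type livers lay above all 6 liver-null livers, which held for 1 of the 9 genes and, in the lower direction, for 2.09% of all genes tested. Mid1ip1 fell by 1.72 on the log2 scale (SE 0.31, adjusted p = 0.00969, limma), and by set the difference was -2.04 and -1.08. It passed in each of the 18 alternatives tried, with adjusted p from 0.0039 to 0.0316.

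Thrsp read 12.40, 11.97 and 12.24 in wild-type saline and 11.22, 11.32 and 11.92 in liver-null saline livers, and the groups did not overlap. In the APAP groups it was 10.73, 12.46 and 11.92 in wild-type and 11.22, 12.10 and 12.004 in liver-null livers, which overlapped. The log2 difference was -0.71 in saline (SE 0.39, adjusted p = 0.516) and 0.07 after APAP (adjusted p = 0.999, limma). Over both treatments it was -0.32, with a 95% interval from -0.92 to 0.28. Its second probe set gave -0.39 (SE 0.36), and on it the saline groups overlapped, with liver-null 16 at 11.09 and wild-type 9 at 10.97.

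Of the genes of glyceride metabolism, Gpam encodes the mitochondrial enzyme that puts the first acyl chain on glycerol phosphate. It read 10.46, 10.24 and 10.22 in wild-type saline and 9.47, 9.20 and 9.61 in liver-null saline livers. After APAP it read 9.64, 10.36 and 9.84 in wild-type and 9.25, 9.56 and 9.84 in liver-null livers, whose ranges overlapped. Gpam fell by 0.64 on the log2 scale over both treatments (SE 0.14, adjusted p = 0.0278, limma). The difference was -0.80 within the first set and -0.30 within the second, and its dimmer probe set, at 3.49 to 4.61, gave -0.26 (SE 0.16, adjusted p = 0.503).

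Pnpla3 encodes a lipid droplet protein that responds to SREBP1. Its 1 probe set lay between 2.39 and 3.14 on all arrays and passed the filter on 11 of 12. The difference was -0.08, with a 95% interval from -0.35 to 0.20. At this signal no difference was detectable.

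**Figure D2:**
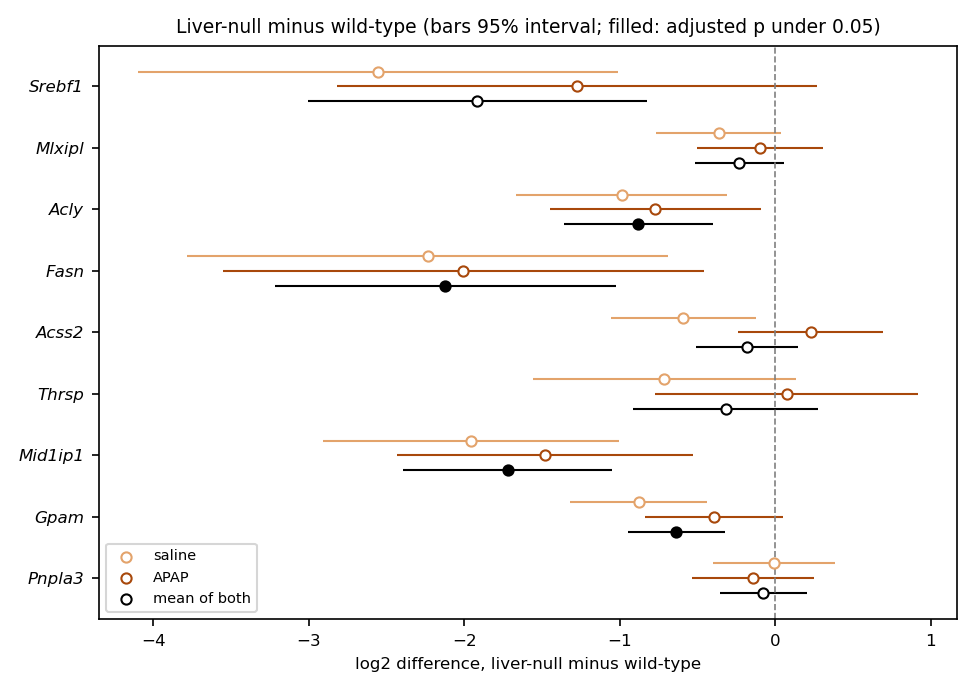
Log2 difference between liver-null and wild-type livers (horizontal axis, values below 0 are lower in liver-null) for the 9 tested genes, in saline, after APAP and as the mean of both. Bars are 95% intervals of the fit and filled points passed; the filled points are the means of Acly, Fasn, Mid1ip1 and Gpam.

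The promoters of the 4 genes that fell are shown because these genes were called lower over both treatments, and that of Thrsp because it is the relative of Mid1ip1 that did not pass. They are RefSeq windows of assembly GRCm38.p6, from 250 bases before to 50 bases after a transcription start, written 5′ to 3′ along the gene. Capitals mark the 5 motifs searched on both strands: the NF-Y box CCAAT, the GC box GGGCGG, the E-box CACGTG, the sterol element TCACNCCAC and the antioxidant element TGACNNNGC. The Fasn window is chr11:120824498-120824797 on the minus strand, Acly chr11:100527951-100528250 on the minus strand, Mid1ip1 chrX:10717115-10717414 on the plus strand, Gpam chr19:55127189-55127488 on the minus strand (the outer of its 2 starts) and Thrsp chr7:97417501-97417800 on the minus strand.
Fasn: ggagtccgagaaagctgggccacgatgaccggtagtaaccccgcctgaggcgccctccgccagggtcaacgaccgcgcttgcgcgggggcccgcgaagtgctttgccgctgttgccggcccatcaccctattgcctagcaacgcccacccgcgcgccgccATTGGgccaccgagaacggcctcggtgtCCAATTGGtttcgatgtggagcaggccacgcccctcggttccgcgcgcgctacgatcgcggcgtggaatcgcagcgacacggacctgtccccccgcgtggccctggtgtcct
Acly: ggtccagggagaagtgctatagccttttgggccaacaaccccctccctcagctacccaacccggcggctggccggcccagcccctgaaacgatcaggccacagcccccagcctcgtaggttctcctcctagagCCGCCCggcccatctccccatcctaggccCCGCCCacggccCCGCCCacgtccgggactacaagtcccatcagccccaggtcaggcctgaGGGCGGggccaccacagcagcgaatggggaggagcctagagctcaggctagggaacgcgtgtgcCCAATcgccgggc
Mid1ip1: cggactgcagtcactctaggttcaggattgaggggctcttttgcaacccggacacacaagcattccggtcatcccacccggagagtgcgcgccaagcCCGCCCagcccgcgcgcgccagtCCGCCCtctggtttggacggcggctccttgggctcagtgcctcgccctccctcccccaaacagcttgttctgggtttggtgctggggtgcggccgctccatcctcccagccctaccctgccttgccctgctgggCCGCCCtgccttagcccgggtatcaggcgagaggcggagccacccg
Gpam: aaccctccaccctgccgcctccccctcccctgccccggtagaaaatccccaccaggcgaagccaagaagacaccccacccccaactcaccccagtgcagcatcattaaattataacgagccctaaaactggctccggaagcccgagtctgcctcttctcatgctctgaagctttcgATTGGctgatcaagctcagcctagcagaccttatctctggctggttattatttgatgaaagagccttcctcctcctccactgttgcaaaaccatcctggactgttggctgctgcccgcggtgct
Thrsp: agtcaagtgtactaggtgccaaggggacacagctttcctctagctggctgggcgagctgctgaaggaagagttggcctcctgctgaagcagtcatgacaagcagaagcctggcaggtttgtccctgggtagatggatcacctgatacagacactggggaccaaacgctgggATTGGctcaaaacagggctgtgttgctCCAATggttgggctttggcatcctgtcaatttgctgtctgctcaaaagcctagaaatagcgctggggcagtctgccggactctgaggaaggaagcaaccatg

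All 10 genes had a window, 14 in all, since Srebf1, Mlxipl and Gpam have several starts. The NF-Y box stood in 9 of the 14 windows, and in 37.4% of all 32851 promoter windows. Fasn holds it 3 times, once as CCAATTGG, where boxes of both strands overlap, and Thrsp 2 times. Of the 4 genes that fell, 3 hold it in at least 1 window, and Mid1ip1, whose adjusted p was the lowest of the 4, does not. The window of the other Gpam start, which is not shown, lacks it. All 5 tested genes that did not pass hold it in at least 1 window too, though Srebf1 and Mlxipl each have 1 window without it. These counts by gene cannot be set against the share of windows. The GC box stood in 8 of the 14 windows against 35.7% of all, the sterol element in 1 (a Mlxipl start) against 1.24%, the E-box in 1 (Mlxipl) against 7.15% and the antioxidant element in 1 (Acss2) against 12.4%. A match is a string of letters in a window, and neither a match nor its absence shows whether a factor binds.

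In saline alone, 0 of the 9 genes passed in the limma fit, where 0.638% of all genes did and 0.272% were called lower. Unadjusted p lay under 0.05 for 6 of the 9 against 12.2% of all genes. The saline groups did not overlap for 7 of the 9, all lower in liver-null livers, against 8.7% of all genes. For Acss2 and Thrsp, which are among these 7, the saline groups overlapped on the gene's second probe set. The lowest adjusted p in saline was 0.0654, for Mid1ip1, followed by 0.0758 for Gpam. With the array set in the model both passed (adjusted p = 0.0441 and 0.0437, limma), where 1.64% of all genes were called lower.

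After APAP, 0 of the 9 passed between the genotypes (limma; 0.768% of all genes, 0.189% lower), with unadjusted p under 0.05 for 3 against 9.02% of all genes. The groups stayed apart for Mid1ip1 alone among the 9, against 6.91% of all genes in that direction. The median log2 difference of the 9 genes was -0.88 in saline and -0.39 after APAP. The genotype differences in the separate treatments and their mean share arrays, so they are not independent.

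APAP moved none of the 9 genes past the threshold in either genotype, and it moved 0 of 8469 genes, 0%, in either (limma). In wild-type livers 8 of the 9 differences were below 0, and the median was -0.23, beside -0.02 for all genes tested. In liver-null livers 3 were below 0, and the median was 0.12, beside 0.02. Without wild-type 12, the wild-type differences of Srebf1, Acly, Fasn and Mid1ip1 were above 0. Unadjusted p lay under 0.05 for 1 gene in wild-type livers, against 1.69% of all genes, and for 0 in liver-null livers, against 0.697%. That gene was Acss2, with a difference of -0.64 (SE 0.21, unadjusted p = 0.0113, adjusted p = 1, limma). In liver-null livers its difference was 0.18.

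The test of whether APAP acted differently in the genotypes, the interaction, called 0 of 9 members and 0 of 8469 genes (limma). Acss2 had the lowest unadjusted p of the 9 there, 0.0189 (log2 0.82, SE 0.30, adjusted p = 0.999), and 1.29% of all genes had one under 0.05. Its second probe set gave 0.81 (SE 0.66), and the value was 0.79 within the first array set and 0.87 within the second. These values come from the same 12 livers, with 1 array per group in the second set, so none is a separate test. For Fasn, the 95% interval of the APAP effect ran from -1.78 to 1.31 in wild-type and from -1.55 to 1.55 in liver-null livers, which includes changes of over 2-fold in either direction.

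**Figure D3:**
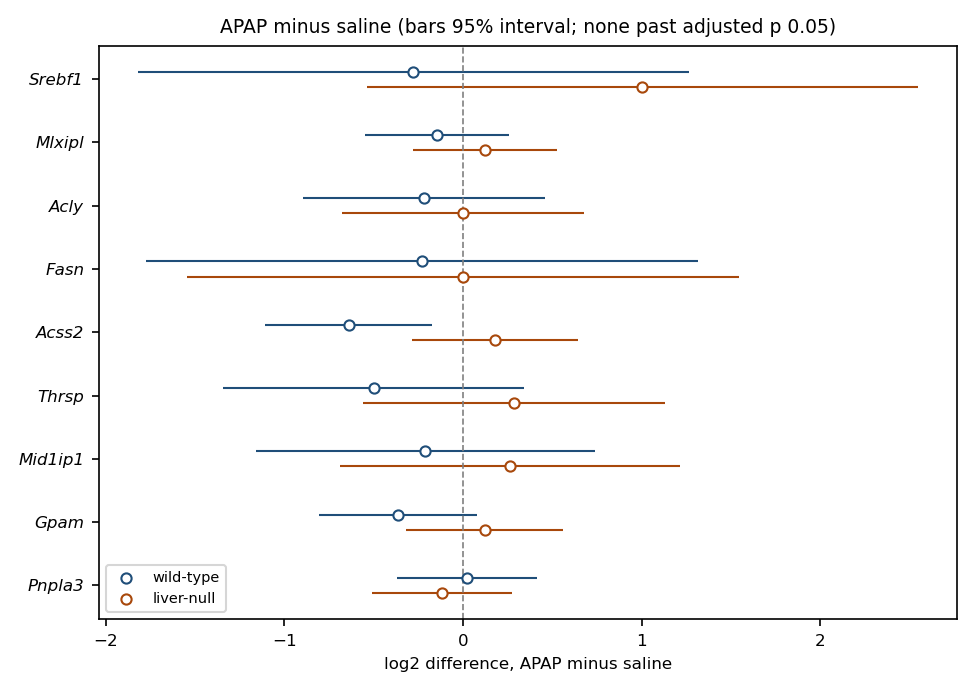
Log2 difference between APAP and saline livers (horizontal axis) for the 9 tested genes in wild-type and liver-null livers, with 95% intervals of the fit. No point passed; the wild-type difference of Acss2 (-0.64) has an interval that leaves out 0.

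In the APAP groups, wild-type 12 was the lowest of its group for 8 of the 9 genes, and wild-type 13 the highest for 8. Liver-null 2 was the lowest of its group for 8, and liver-null 17 the highest for 6. In saline, wild-type 8 was the highest for 7, while the lowest values were split between wild-type 9 (5 genes) and 10 (4 genes), and among liver-null 4 (4), 5 (4) and 16 (1). The same counts over all genes were not taken. The mean of the 9 genes, each centred on its own mean over the 12 livers, was -0.20 in wild-type APAP 12 and 0.78 in wild-type APAP 13. It ran from -0.98 in liver-null APAP 2 to 0.13 in liver-null APAP 17, which lies above wild-type APAP 12.

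In saline this mean was 0.78, 0.46 and 0.53 in the wild-type livers 8, 9 and 10 and -0.60, -0.81 and -0.24 in the liver-null livers 4, 5 and 16. Liver-null 16 and 17, of the second array set, were the highest of their groups for 6 of the 9 genes each, while wild-type 10 and 14 of that set were so for 1 each. The part of the array set in these values was not tested. Differences over both treatments were larger within the first set than within the second for 8 of the 9 genes and below 0 in both sets for 6.

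**Figure D4:**
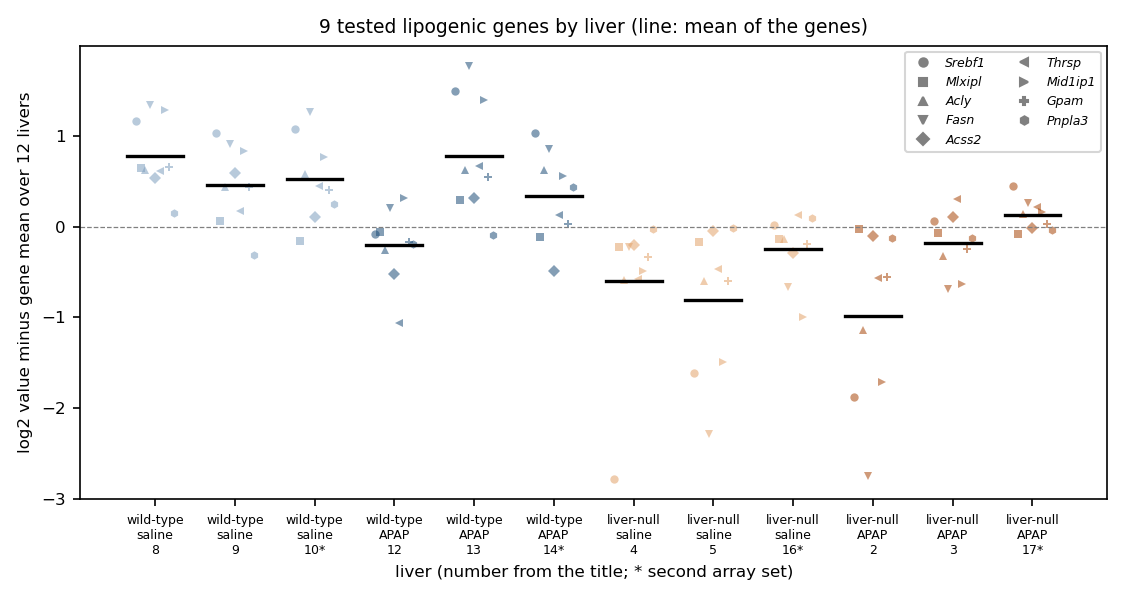
Log2 value of each of the 9 tested genes minus its mean over the 12 livers (vertical axis), by liver (horizontal axis); the line is the mean of the 9 genes and * marks the second array set. The lowest line is liver-null APAP 2 at -0.98 and the highest are wild-type saline 8 and wild-type APAP 13 at 0.78.

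Of 11 tested genes of desaturation and elongation, 6 were lower over both treatments (against 2.18% of all genes) and 0 higher (median -0.78). The 4 largest were the elongase Elovl6 (log2 difference -2.35, SE 0.40), the stearoyl-CoA desaturase Scd1 (-1.78, SE 0.28), the desaturase Fads2 (-1.16, SE 0.18) and the elongase Elovl2 (-0.84, SE 0.17). Of 10 sterol targets of SREBP factors, 5 were lower and 0 higher, with a median of -0.95. With the array set in the model 9 were lower, against 5.28% of all genes. The 5 include Stard4, a sterol carrier (-1.22, SE 0.11), the squalene synthase gene Fdft1 (-0.95, SE 0.16) and the sterol enzyme genes Dhcr7 (-1.27, SE 0.20) and Idi1 (-1.17, SE 0.24).

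Genes that control SREBP and ChREBP did not pass in either direction, 0 of 10 (limma; median -0.15). They included Scap, which escorts SREBP to the Golgi (-0.31, adjusted p = 0.232), the liver X receptor gene Nr1h3 (-0.03, adjusted p = 0.935) and Mlx, the partner of ChREBP (-0.29, adjusted p = 0.505). Insig2, which holds SREBP in the endoplasmic reticulum, had a difference of 0.87 (SE 0.24) that did not pass (adjusted p = 0.064) and passed with the array set in the model (adjusted p = 0.00979, limma).

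Of 7 tested genes of carbon and NADPH supply, 3 were higher and 0 lower: malic enzyme Me1 (1.26, SE 0.21), Pgd of the pentose phosphate pathway (0.81, SE 0.11) and transketolase Tkt (0.78, SE 0.08). All 3 are also known to respond to the antioxidant factor NRF2, whose part in these values was not tested. Pyruvate kinase Pklr, a standard ChREBP target, had a difference of -0.71 and did not pass (adjusted p = 0.228). Of 9 genes of acyl-CoA and glyceride synthesis 1 was lower, the acyl-CoA synthetase Acsl5 (-0.43, SE 0.10), and 0 were higher.

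Of 10 tested genes of insulin signalling 0 passed (median 0.04). This median does not measure signalling. Igfbp1 had the largest saline difference among the 10, 1.97 (SE 0.63, adjusted p = 0.205, limma; 0.0527 with the array set in the model). Its difference was -0.24 after APAP and 0.87 over both treatments (adjusted p = 0.368, limma). Of 6 genes of carboxylase and AMPK control 0 passed (median -0.20), and among them Acacb, the other acetyl-CoA carboxylase, had a difference of -0.33 (adjusted p = 0.588). The rule called 4.46% of all genes changed over both treatments.

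**Figure D5:**
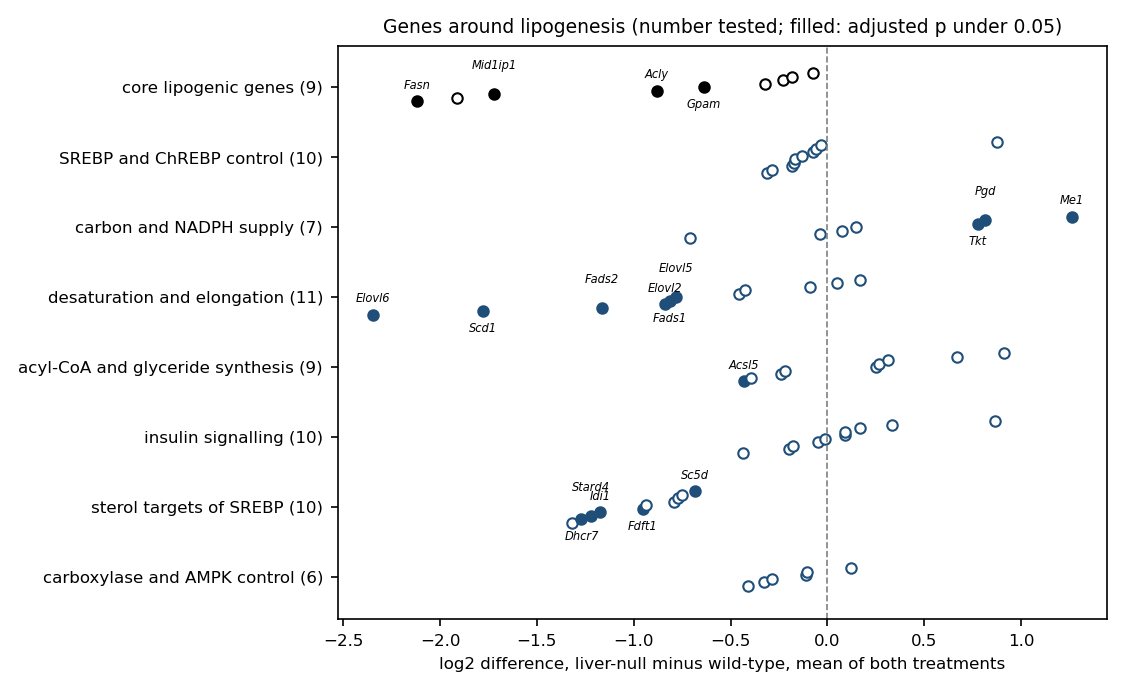
Log2 difference between liver-null and wild-type livers over both treatments (horizontal axis) for each tested gene of the lipogenic set and of 7 lists around it (rows, number tested in parentheses). Filled points passed; they lie below 0 in desaturation and elongation (6 of 11) and in the sterol targets (5 of 10), and above 0 in carbon and NADPH supply (3 of 7).

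Fat tissue also makes these enzymes. Of the 7 adipocyte markers listed, 5 were on the array. The defining markers Adipoq and Lep had group means of 1.11 to 1.61, near the floor of the array. Retn had group means of 2.52 to 2.69 and Fabp4 of 5.92 to 6.21. Neither Retn nor Fabp4 passed between the genotypes over both treatments (adjusted p = 0.735 and 0.862, limma). The summed linear level of the 5 ran from 6308 to 7234 in saline and 5366 to 7192 with APAP for wild-type livers, and from 6432 to 6880 and 6513 to 6949 for liver-null livers, and Car3, which hepatocytes also make, gave most of it.

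The hepatocyte markers, 5 of 7 on the array, had none past the threshold and all 5 below 0 (median -0.09), and their mean log2 level was 12.83 to 12.98 in wild-type and 12.75 to 12.82 in liver-null livers. Cela1, an acinar elastase, was lower in liver-null livers (-1.77), while the acinar genes Cpa1 and Ctrb1 had group means of 1.67 to 2.12. Of the other lists, 0 of 7 myeloid, 0 of 7 stellate, 0 of 5 endothelial and 0 of 2 cholangiocyte genes passed (limma). With the array set in the model 1 hepatocyte, 1 myeloid and 1 endothelial gene were lower in liver-null livers, against 5.28% of all genes. They were Apoa1 (-0.20, adjusted p = 0.0401), the Kupffer cell gene Clec4f (-0.48, adjusted p = 0.0114) and Kdr (-0.28, adjusted p = 0.0263, limma). All 7 stellate and fibroblast genes were below 0 (median -0.20). The part of these cell types in the results was not tested.

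Profiles were compared by the root-mean-square difference of centred log2 values over the 12 livers. The member nearest to Fasn was Mid1ip1 (0.44) and the next Acly (0.86). The nearest genes outside the set were Elovl6 (0.46) and Scd1 (0.51), followed by Bhlhe40 (0.73), Frmd4b (0.74) and Sucnr1 (0.82). Nearest to the mean profile of the 9 were the members Acly (0.14) and Gpam (0.20), and outside the set Amacr (0.24), Lasp1 (0.28), S1pr1 (0.29), Fads1 (0.29) and Lect2 (0.29). Each member is itself part of that mean and the outside genes are not, so their distances to it are not alike. This distance depends on the size of the change as well as its shape, and it is a description.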

How the data were processed

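Liver RNA of 12 mice was read on 1 Affymetrix array each. The authors deposited log2 values summarised by RMA, per the submitters' processing notes, and the settings of RMA are not known. Names come from GEO's platform annotation, which may be old. Of 22690 probe sets, 20380 have 1 symbol, 691 several and 1555 others none, and 64 are controls. Each gene took its brightest probe set by mean, and genes over the 40th percentile on 3 or more arrays were tested (8469 of 12393). A limma 3.58.1 model (R 4.3.3) with 1 mean per group was fitted to all 12 arrays (8 residual degrees of freedom), two-sided, with Benjamini-Hochberg adjustment over all genes tested and a threshold of 0.05. There were 6 comparisons, and the fit was tested on simulated data.

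SE stands for standard error. Replicates are separate mice, and their number limits the precision, since arrays have no read depth. No pair of arrays shared over 0.00881% of values. The genes described, the lists and the comparison over both treatments were chosen with earlier results of these data known. Named genes are all 10 members, up to 4 called genes per list and direction, and the 5 nearest profiles. Other list genes named with values were chosen after their values were seen. Alternatives were the array set as a covariate, other filters, all probe sets, quantile normalization, fits to 2 groups and leaving out each array. The fit without the second array set was chosen after seeing the data.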

Additional observations from a re-analysis of the deposited data

How the results depend on the processing

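Mid1ip1 passed over both treatments in all 18 alternatives run. The other 3 calls depended on single livers. Fasn lost its call (adjusted p up to 0.0877) without any 1 of wild-type saline 8, 9 or 10, wild-type APAP 13 or 14, liver-null saline 5 or liver-null APAP 2 or 3. Gpam lost it (up to 0.0775) without wild-type saline 8 or 9, wild-type APAP 13, liver-null saline 4 or 5 or liver-null APAP 2 or 3, and Acly (up to 0.11) without any of these 7, without wild-type saline 10 or wild-type APAP 14, and with no filter on low values. Srebf1 passed with the array set as covariate and in 7 of 18 alternatives in all (adjusted p 0.0143 to 0.129). The cause was not tested.

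The number of members called over both treatments, 4, ranged from 1 to 5 when 1 liver was left out, and that in saline from 0 to 1. In saline it was 2 with the array set as covariate and 1 in a fit to the 2 groups alone. The number of all genes called, 54 in saline, 65 after APAP and 378 over both treatments, became 243, 185 and 882 with the array set as covariate. It was 82 and 99 probe sets in saline and after APAP when all probe sets were tested, 104 in saline and 590 over both treatments with quantile normalization, and 19 and 39 in fits to 2 groups. In the first array set alone it was 117 in saline and 1 for APAP in liver-null livers. Leaving out 1 liver gave 10 to 92, 21 to 59 and 208 to 416.

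Values that crossed 0 had all missed the threshold. When 1 liver was left out, the genotype difference in saline ranged from -0.18 to 0.10 for Pnpla3. After APAP it ranged from -0.41 to 0.45 for Thrsp, -0.18 to 0.0302 for Mlxipl and -0.27 to 0.0484 for Pnpla3, and over both treatments from -0.16 to 0.0202 for Pnpla3. The APAP effect in wild-type livers ranged from -0.62 to 0.17 for Srebf1, -0.31 to 0.0886 for Mlxipl, -0.36 to 0.0758 for Acly, -0.65 to 0.14 for Fasn, -0.53 to 0.0115 for Mid1ip1 and -0.17 to 0.14 for Pnpla3. In liver-null livers it ranged from -0.29 to 0.35 for Acly, -0.66 to 0.84 for Fasn, -0.18 to 0.76 for Mid1ip1 and -0.0215 to 0.27 for Gpam. The interaction ranged from -0.0776 to 0.56 for Acly, -0.43 to 1.08 for Fasn and -0.26 to 0.0565 for Pnpla3.

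In the first array set alone, Pnpla3 was 0.0646 in saline, 0.0169 after APAP, 0.0407 over both treatments and -0.0618 for APAP in wild-type livers, Mid1ip1 was -0.18 for APAP in liver-null livers, and the Fasn interaction was -0.33. In that fit Fasn and Acly did not pass over both treatments (adjusted p = 0.0611 and 0.052, limma) and Srebf1 did (0.0398). No paired analysis was possible because the groups share no replicate numbers.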
